A study of Bombus terrestris with 33 samples.

Results

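The 100 most abundant contigs of the brain transcriptome of Bombus terrestris queens, the buff-tailed bumblebee, held on average 38.8 ± 3.42% (SD, n = 33) of the sequenced reads. They were chosen by their level. The counts of each library were divided by the library's total, and the 100 contigs with the highest mean share over the 33 libraries were taken from the 10672 contigs of the deposited count table. A contig is a feature of that table, and its share is given as a percent of the reads counted in a library. All 100 had enough reads to be tested, among 5606 contigs tested in all.

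Each library came from the brain of 1 adult queen and is named by its group and replicate number, as in FM 2. Young queens (gynes) of commercial colonies met males from an age of 5 days. In the FM group, 9 queens did not mate when offered males. In the SM group, 8 queens mated and were killed by freezing after 3 further days. The FR and SR queens had mated, had hibernated for 8 weeks at 5 °C and were frozen 1 month after hibernation. At dissection, mature eggs were found in the developed ovaries of the 8 SR queens, and the ovaries of the 8 FR queens were undeveloped. FR and SR queens were therefore sorted by their state and not by a treatment. The queens frozen before hibernation were from colonies C2, C3 and C7 and those frozen after it from C2, C3 and C9, with 2 or 3 queens of a group in each colony. Queens of a colony may be sisters, and only C2 and C3 link the samplings before and after hibernation. The labels give an estimated age without a unit, from 6 to 27 in FM, 11 to 20 in SM, 91 to 102 in FR and 94 to 97 in SR queens, so stage, age and hibernation change together.

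A bumblebee queen leaves her colony, mates, passes the winter in diapause and then founds a nest alone, activating her ovaries as she does so. In mRNA sequencing of a tissue a small number of transcripts usually takes a large part of the reads. Shares of reads sum to a fixed total, so a transcript that takes more of them leaves fewer for every other, whether or not the amount of the others changed. The deposited files do not pair the contigs with gene names, and none of the identifiers matched the reference gene table, so no gene name, function or cell type is given here and the dissection could not be checked against marker genes. Contig lengths were not used, so the ranks say which contigs hold the most reads and not which transcripts are the most numerous. In whole brains, fewer cells of a type and less RNA per cell cannot be told apart.

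Total counts ranged from 42858092 to 61560882 per library, and the libraries with the most reads were not those of 1 group. The smallest count of any of the 100 contigs in any library was 3926 reads, and none was at 0. The 95% Wilson interval of a share was at most 0.00949 percentage points to either side, or 3.13% of the share, and covers counting error only. The spread between queens was far wider, and it sets the precision below. At the lower limit of the choice, rank 99 (Contig3055) held 0.176% and rank 100 (Contig1796) 0.174% of reads on average, while the contigs just outside, Contig3748 and Contig2439, held 0.173% and 0.171%. The limit therefore falls where neighbouring contigs hardly differ. Of the 100, choosing by the median share kept 97, and choosing by the mean of the 4 group means or by a mean scaled with TMM factors (trimmed mean of M values, a scaling between libraries) kept 99.

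The share of reads held by the 100 contigs was lowest on average in FR and highest in SR queens, with wide overlap. In FM queens it ran from 33.9% through a median of 39.5% to 46.9%, and in SM queens from 34.3% through 37.1% to 44.5%. It ran in FR queens from 35.4% through 36.8% to 41.3%, and in SR queens from 34.7% through 40.4% to 45.3%. The group means were 38.9 ± 4.08% (SD, n = 9) in FM, 38.3 ± 3.36% (SD, n = 8) in SM, 37.2 ± 1.77% in FR and 40.7 ± 3.56% in SR queens. Every group overlapped every other, and no test was made on this sum. FR 32, at 41.3%, stood above the other FR queens, which reached 37.4%.

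**Figure D1:**
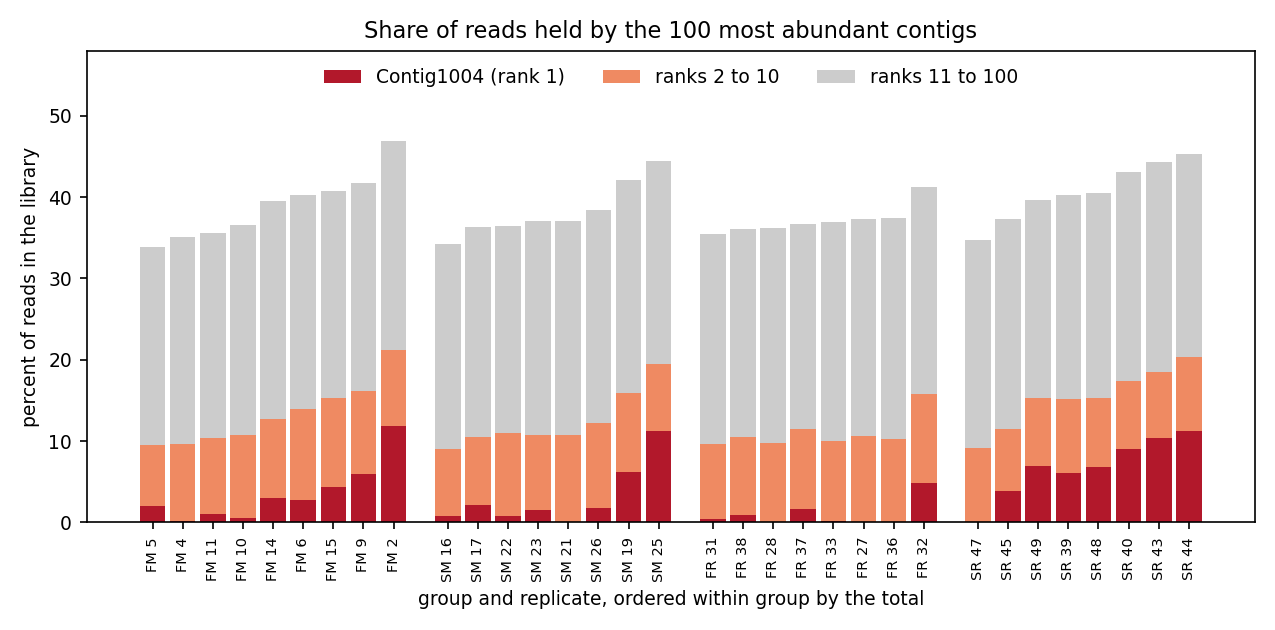
Percent of the reads of each library held by the 100 contigs, with 1 bar per queen, split into Contig1004 (red), ranks 2 to 10 (orange) and ranks 11 to 100 (grey). The grey part runs from 24.3% to 27.2% over all queens, while the red part runs from 0.00794% to 11.9%.

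The most abundant contig made most of the difference between these sums. Ranks 11 to 100 together held 25.6 ± 0.682% in FM, 25.8 ± 0.507% in SM, 26.2 ± 0.741% in FR and 25.4 ± 0.534% in SR queens (SD). Ranks 2 to 10 held 9.79 ± 1.08%, 9.40 ± 1.06%, 10.0 ± 0.574% and 8.53 ± 0.531% in the same order. When the reads of Contig1004 were taken out of the total, the other 99 contigs held 36.7 ± 2.25% in FM, 36.4 ± 1.48% in SM, 36.6 ± 1.09% in FR and 36.4 ± 1.44% in SR queens. Without that contig the 4 group means thus lay within 1 SD of each other. The number of contigs needed to reach 50% of the reads ran from 107 in FM 2 to 206 in FM 5 and SM 16, with a median of 181. Its mean was 158 ± 25.6 in SR and 185 ± 11.5 in FR queens (SD).

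Membership was largely shared between queens, although each library helped to set the 100, so some overlap follows from the choice. In a single library, between 79 and 93 of the 100 contigs were among that library's own 100 most abundant, with a median of 86. Of the 100, 50 were among the 100 most abundant of every library and 84 among the 200 most abundant of every library. The 100 contigs of highest mean in a group included 93 of them in FM, 97 in SM, 90 in FR and 90 in SR queens, and 78 were in all 4 lists. The lowest place that a member took in any library was rank 1533. The contig with the most reads was not the same in all queens. Contig1004 led in 19 libraries, of which 6 were FM, 4 SM, 2 FR and 7 SR. Contig5426 led in 10, of which 6 were FR, 2 FM and 2 SM, so that it led in most FR and in no SR library. Contig2699 led in 3 libraries and Contig4968 in 1.

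The 10 most abundant contigs fell into those that were steady from queen to queen and those that were not. Contig1004 had a mean share of 3.58% and a coefficient of variation (CV) over the 33 libraries of 105%, with 1494 times more in the highest than in the lowest queen. Its share ran from 0.116% through a median of 2.77% to 11.9% in FM and from 0.0728% through 1.61% to 11.3% in SM queens. After hibernation it ran from 0.00794% through 0.262% to 4.78% in FR and from 0.0655% through 6.84% to 11.2% in SR queens. All groups overlapped, since SR 47 was lower than 5 of the 8 FR queens. The other 7 SR queens lay at 3.84% or more, and the FR queens other than replicate 32 lay at 1.64% or less. The log2 fold change of SR over FR queens was 3.06 ± 1.20 (SE), which did not pass the quasi-likelihood test of edgeR (adjusted p = 0.0548). Its colony means were 0.147% in FR and 7.55% in SR queens of colony C2, 1.63% and 8.46% in C3, and 1.28% and 4.58% in C9. DESeq2 called this difference (log2 fold change 3.07, adjusted p = 0.00206), as did limma-voom with quality weights (6.34, adjusted p = 2.55e-05) and edgeR without the colony term (2.93, adjusted p = 0.0460). Leaving out FM 2, SM 21 or 25, FR 32 or 37 or SR 47 also gave a call, with a log2 fold change between 3.10 and 5.10. Over all alternatives the adjusted p ran from 2.55e-05 to 0.327. Against the queens before hibernation, Contig1004 had log2 fold changes in FR queens of -2.15 ± 1.31 over FM (SE; adjusted p = 0.249 by edgeR) and -1.63 ± 1.37 over SM queens (SE; adjusted p = 0.413 by edgeR). Without FR 32 the value over FM queens was -4.31 and passed (adjusted p = 0.0414 by edgeR), and limma-voom called both (-4.92 and -3.76).

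**Figure D2:**
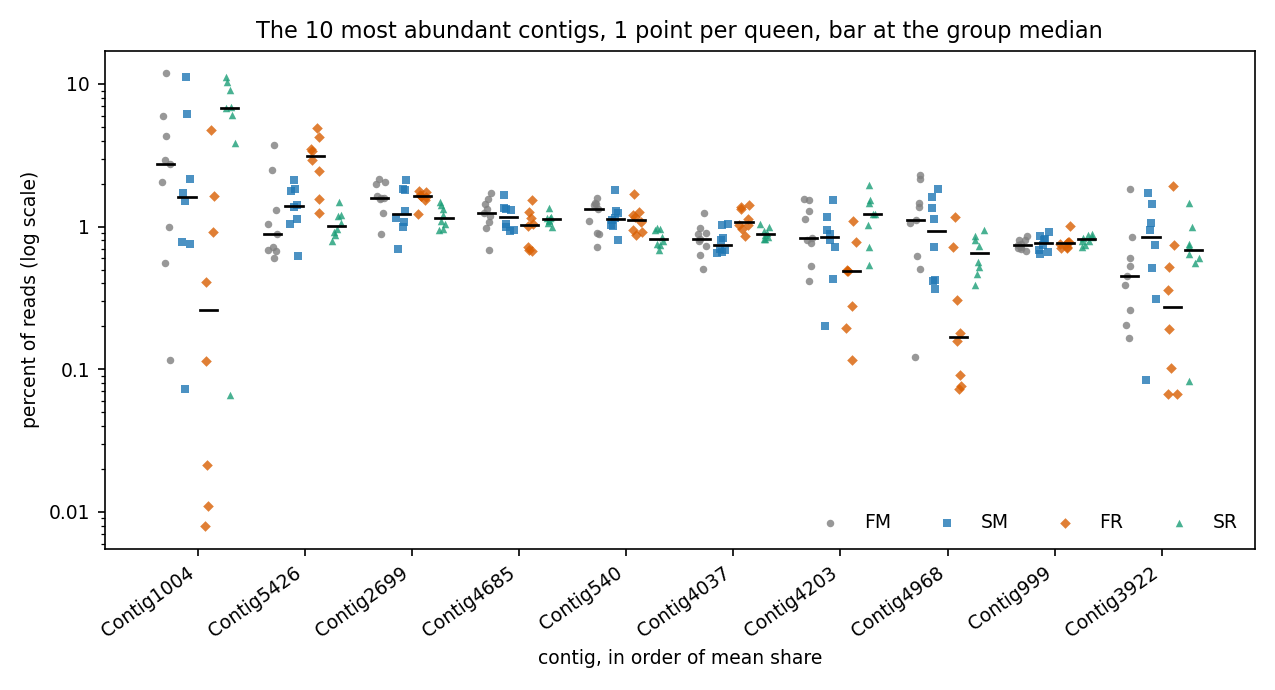
Percent of reads on a log scale for the 10 most abundant contigs, with 1 point per queen, colours and symbols for the 4 groups and a bar at each group median. Contig1004 spans from 0.00794% to 11.9%, whereas Contig999 stays between 0.638% and 1.01%.

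Contig5426, the second most abundant, had a mean share of 1.70% and was high in FR queens. It ran from 1.25% through a median of 3.15% to 4.88% in FR and from 0.798% through 1.00% to 1.48% in SR queens. In FM queens it ran from 0.607% through 0.883% to 3.71%, and in SM queens from 0.622% through 1.39% to 2.13%. FR queens overlapped SR queens through FR 37 alone, at 1.25%, and overlapped FM queens through 3 FM queens at 1.31% or more. It was lower in SR than in FR queens by a log2 fold change of -1.20 ± 0.30 (SE; adjusted p = 0.00620 by edgeR). Over SM queens the FR value was 0.83 ± 0.31 (SE; adjusted p = 0.0605 by edgeR), which DESeq2 (adjusted p = 0.0352), limma-voom (adjusted p = 0.00139), edgeR without the colony term (adjusted p = 0.0195) and edgeR on the compared groups alone (adjusted p = 0.0169) called. It was also called without FM 4, 10 or 14, SM 22 or FR 32 or 37, with values from 0.88 to 0.98, and the adjusted p over all alternatives reached 0.348.

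Among the other 8 of the 10, Contig4203 and Contig4968 were the next to differ between SR and FR queens. Contig4203 ran from 0.117% through 0.486% to 1.10% in FR and from 0.541% through 1.23% to 1.95% in SR queens, a log2 fold change of 1.42 ± 0.43 (SE; adjusted p = 0.0163 by edgeR). Contig4968 ran from 0.0722% through 0.169% to 1.17% in FR and from 0.391% through 0.649% to 0.949% in SR queens, a log2 fold change of 1.47 ± 0.54 (SE; adjusted p = 0.0400 by edgeR). For both the ranges overlapped while most FR queens lay low. The colony means of Contig4968 were 0.0799% in FR and 0.831% in SR queens of C2, and 0.353% and 0.572% in C3. In C9 they were 0.738% in FR and 0.635% in SR queens, so the direction was not common to all colonies. Contig999 had a CV of 10.4% and changed by little, from a median of 0.763% in FR to 0.814% in SR queens. Its log2 fold change after TMM scaling, 0.23 ± 0.08 (SE), yet passed the test (adjusted p = 0.0274 by edgeR). The part of the scaling in this value was not tested. In colonies C2, C3 and C9 its mean shares were 0.728%, 0.769% and 0.865% in FR queens. In SR queens they were 0.814%, 0.801% and 0.821%, so the share was lower in SR queens of C9. Contig2699, Contig540 and Contig3922 were called in no comparison, with mean shares of 1.45%, 1.10% and 0.664%. Contig3922 was uneven within every group, with a CV of 78.6% and shares from 0.0672% to 1.92%, both limits in FR queens. Contig4685, at 1.15% on average, was lower in FR than in FM queens (log2 fold change -0.45 ± 0.16 SE, adjusted p = 0.0456 by edgeR). Contig4037, at 0.917%, was higher in FR than in SM queens (0.33 ± 0.11 SE, adjusted p = 0.0394 by edgeR).

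Over the 33 libraries the 100 contigs were less variable than the other tested contigs, but not uniformly so. Their median CV was 20.3%, against 29.1% for the other 5506. The 100 were chosen by level, while the others include every further contig that passed the minimum count of 10. Counting error adds more to the CV at low counts, and its part in this difference was not tested. A CV of 50% or more was found in 15 of the 100 and in 23.1% of the others, and a CV of 10% or less in 17 of the 100 and in 6.94% of the others. The largest CV values were 106% for Contig4127, at rank 90, and 105% for Contig1004, and the smallest were 6.22% for Contig5333 and 6.75% for Contig728. Contig5333 stayed between 0.225% and 0.302% in all queens. The median SD of log2 shares within a group was 0.33 in FM, 0.26 in SM, 0.21 in FR and 0.20 in SR queens, against 0.41, 0.34, 0.32 and 0.29 for the other contigs. The values were larger in the groups before hibernation, for members and for other contigs alike.

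The mean share in FR queens was the highest of the 4 group means for 36 of the 100 contigs and the lowest for 41. Of the other tested contigs, FR queens had the highest mean in 55.6% and the lowest in 17.7%. The shares of the other contigs move with those of the 100, because they fill the rest of the same total. SR queens had the highest mean for 24 and the lowest for 31 of the 100, against 12.0% and 46.8% of the others. The ratio of the highest to the lowest group mean was at least 2 in 18 of the 100 and in 17.1% of the others, with medians of 1.27 and 1.38.

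The comparison of SR with FR queens asks how brains differ between queens with developed and undeveloped ovaries after hibernation. Of the 100 contigs 56 were called at an adjusted p under 0.05, where 29.5% of all tested contigs were. SR queens were higher in 39 of them, against 14.3% of all contigs called in that direction, and lower in 17, against 15.2%. The excess over all contigs was therefore in the higher direction, and the share called lower was near that of all contigs. The 39 had log2 fold changes from 0.11 to 3.07 with a median of 0.32, and the 17 from -2.12 to -0.20 with a median of -0.68. The changes were mostly small, since 35 of the 56 were under 0.5 in size, 8 were higher by at least 1 and 5 were lower by at least 1. The median log2 fold change over the 100 was 0.15, against -0.04 over all tested contigs, and their median size was 0.30 against 0.26. Since a contig with many reads and a small spread is called at a smaller change, the members' lower variation stands beside this count, and its part in the count was not tested. By rank, 3 of the 10 most abundant were higher and 1 lower, 16 of ranks 11 to 50 were higher and 10 lower, and 20 of ranks 51 to 100 were higher and 6 lower.

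The balance of these calls depended on the scaling. The TMM factors averaged 1.08 in FR and 0.949 in SR queens, and the factor of a library multiplies its total in the fit. With total counts and no scaling factors, 11 of the 100 were called higher and 25 lower in SR queens, where 3.84% and 27.4% of all contigs were, and the median over all contigs was -0.22 in place of -0.04. The median of the 100 was then -0.04. A scaling shifts all contigs by about the same amount, so the distance between these medians is no check on it. Upper-quartile scaling gave 30 higher and 19 lower, against 10.2% and 18.1% of all contigs. Even the 2 steadiest contigs were called, Contig728 at 0.238 ± 0.0214% in FR and 0.261 ± 0.0125% in SR queens (SD; log2 fold change 0.32, adjusted p = 0.00507 by edgeR) and Contig5333 at 0.254 ± 0.0112% and 0.254 ± 0.0158% (SD; 0.18, adjusted p = 0.0192 by edgeR). The shares of Contig5333 were equal to 3 digits, and its fitted difference came after TMM scaling. Of the 56 called contigs 39 had a common direction in colonies C2, C3 and C9, as had 22 of the 44 contigs not called. With colony C2 left out edgeR called none of the 100, with 42 under 0.05 before adjustment, and with C3 left out it again called none, with 50. The share of all contigs under 0.05 in these fits is not given here, so the 2 counts are not set against it.

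**Figure D3:**
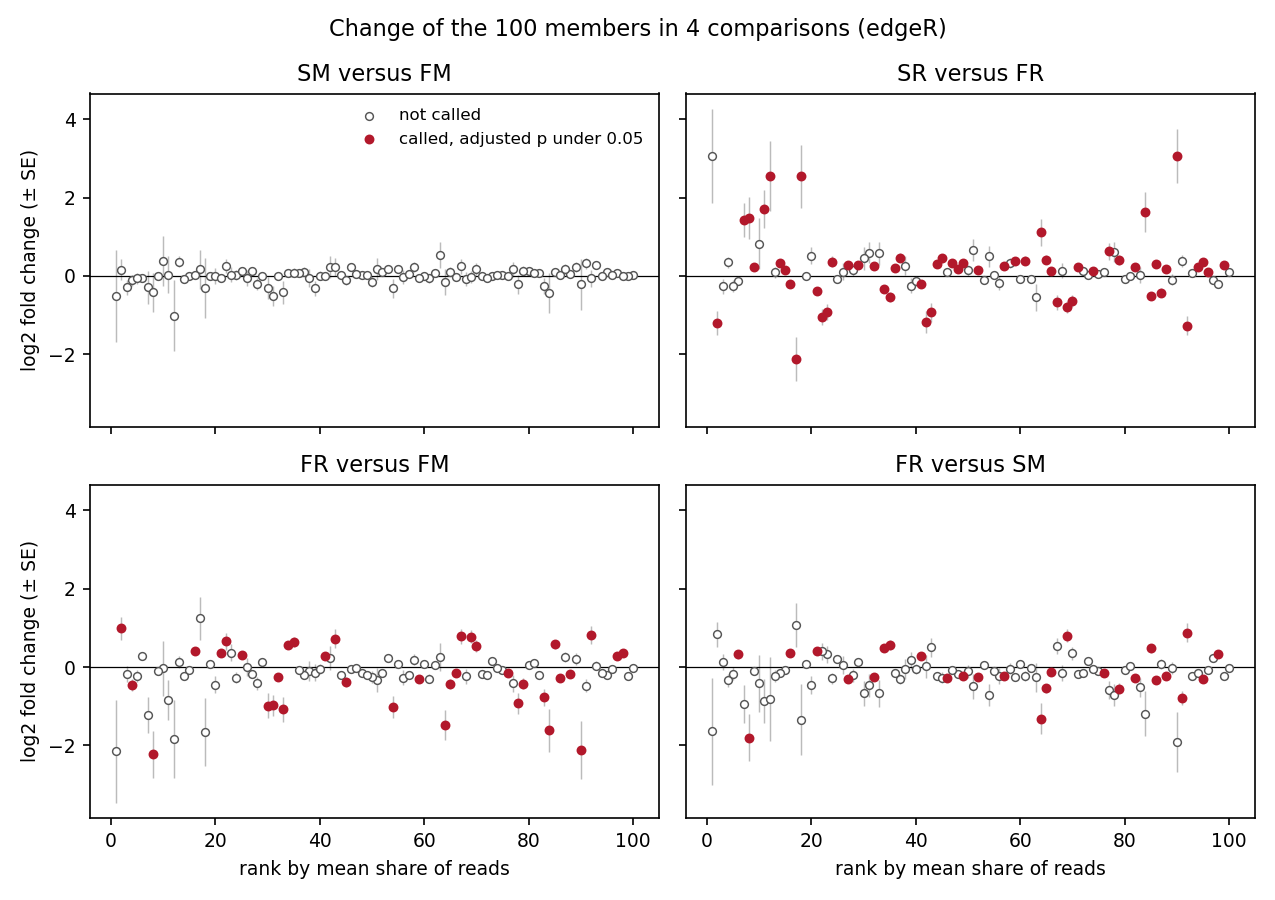
Log2 fold change with its SE (edgeR) of each of the 100 contigs against its rank by mean share, in 4 comparisons, with called contigs (adjusted p under 0.05) in red. None is red for SM versus FM, 56 are for SR versus FR, 36 for FR versus FM and 27 for FR versus SM.

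The contigs with the largest called changes in the same direction in every colony were Contig4127 and Contig5359, higher in SR queens, and Contig5427 and Contig5699, lower in SR queens. Contig4127, at rank 90, ran from 0.0293% through a median of 0.0360% to 0.123% in FR and from 0.0364% through 0.394% to 0.788% in SR queens. The ranges overlapped through SR 47 alone at the low end, with the other SR queens at 0.244% or more. Its log2 fold change was 3.07 ± 0.69 (SE; adjusted p = 0.00461 by edgeR), and the means were 0.0346% and 0.366% in colony C2, 0.0473% and 0.494% in C3, and 0.0928% and 0.275% in C9. Contig5359, at rank 12, ran from 0.0366% through 0.0398% to 0.893% in FR and from 0.0789% through 0.969% to 1.77% in SR queens. FR 32 held the FR maximum, and the FR queens below it reached 0.294%. The log2 fold change was 2.55 ± 0.90 (SE; adjusted p = 0.0351 by edgeR), and 4.12 without FR 32 (adjusted p = 0.00402 by edgeR). This call was lost when low counts were not filtered (adjusted p = 0.0596 by edgeR) and without FR 27, 28, 31, 33, 36 or 38 or SR 39, 40, 43, 44 or 48, where the log2 fold change lay between 2.32 and 2.52. Its adjusted p over all alternatives ran from 3.66e-06 to 0.295.

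Contig5427, at rank 17, ran from 0.195% through a median of 1.20% to 1.67% in FR and from 0.116% through 0.151% to 0.315% in SR queens. The log2 fold change was -2.12 ± 0.57 (SE; adjusted p = 0.00925 by edgeR). Contig5699, at rank 92, ran from 0.136% through 0.348% to 0.468% in FR and from 0.0967% through 0.102% to 0.154% in SR queens, a log2 fold change of -1.27 ± 0.24 (SE; adjusted p = 0.00344 by edgeR). For both, only FR 32 and 37 reached down into the SR range. With colony C2 or, in turn, C3 left out, the log2 fold changes were 2.73 and 2.68 for Contig4127, 1.81 and 3.27 for Contig5359, -1.81 and -1.97 for Contig5427, -1.05 and -1.26 for Contig5699 and -0.93 and -1.18 for Contig5426, none of which passed. Groups that did not overlap at all were rare. No member had every SR queen above every FR queen, where 0.0714% of all contigs did. In 2 members every SR queen lay below every FR queen, against 1.12% of all contigs. These were Contig3156, at 0.102% to 0.218% in SR and 0.269% to 0.437% in FR queens, and Contig5016, at 0.286% to 0.344% and 0.345% to 0.606%, the latter picked out after its values were seen.

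Against FM queens, which had not mated or hibernated, 36 of the 100 contigs were called in FR queens, where 17.3% of all contigs were. Of these 16 were higher, against 8.40% of all contigs, and 20 lower, against 8.90%. The median log2 fold change of the 100 was -0.15, against 0.01 over all contigs. Upper-quartile scaling gave 19 higher and 16 lower, where 10.7% and 6.49% of all contigs were called so. Total counts gave 14 higher and 7 lower, where 7.58% and 2.85% of all contigs were, with a median of all contigs of 0.10. DESeq2 gave 17 higher and 27 lower, where 9.97% and 13.0% of all contigs were called so. Limma-voom gave 23 higher and 47 lower, against 22.9% and 21.2%. The share called higher by limma-voom was thus near that of all contigs. The 2 called contigs with the largest rise were Contig5426, with a log2 fold change of 0.99 ± 0.29 (SE; adjusted p = 0.0237 by edgeR), and Contig5699, with 0.82 ± 0.24 (SE; adjusted p = 0.0223 by edgeR). Contig5699 ran from 0.0828% through a median of 0.143% to 0.352% in FM queens, a range in which 4 of the 8 FR queens also lay. Both calls were lost when the fit held the compared groups alone (1.06, adjusted p = 0.0867 by edgeR, and 0.93, adjusted p = 0.0747 by edgeR) and without FM 2, 5 or 9. Contig5426 also lost its call without FR 27, 28 or 36, and Contig5699 without FR 27, 33 or 36. In these fits the log2 fold changes lay between 0.88 and 0.95 and between 0.71 and 0.78. Over all alternatives the adjusted p ran from 7.04e-05 to 0.217 for Contig5426 and from 5.73e-05 to 0.236 for Contig5699.

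The 2 with the largest fall were Contig4968 and Contig4127. Contig4968 ran from 0.122% through a median of 1.12% to 2.30% in FM queens and fell by 2.22 ± 0.60 (SE) on the log2 scale in FR queens (adjusted p = 0.0151 by edgeR). Its colony means were 0.583% in FM and 0.0799% in FR queens of C2, and 1.41% and 0.353% in C3. Contig4127 ran from 0.0361% through 0.125% to 0.724% in FM queens, and its log2 fold change was -2.12 ± 0.74 (SE; adjusted p = 0.0472 by edgeR). FM 2 held that maximum, and without it the value was -1.10 (adjusted p = 0.231 by edgeR). The call of Contig4127 was lost in 19 of 33 fits when a single library was omitted, with log2 fold changes between -2.19 and -1.10. These left out FM 2, 5, 9, 14 or 15, SM 16, 19, 23 or 26, FR 27, 28, 31, 33, 36 or 38, or SR 39, 44, 45 or 49. It was also lost under total counts (adjusted p = 0.0633 by edgeR) and with no filter (adjusted p = 0.0805 by edgeR), and its adjusted p over all alternatives ran from 0.00999 to 0.621. With colony C2 or, in turn, C3 left out, the log2 fold changes were 0.87 and 1.01 for Contig5426, 0.68 and 0.83 for Contig5699, -2.01 and -2.10 for Contig4968 and -0.98 and -2.57 for Contig4127, and none passed. The count of 36 was 18 without FM 2, 19 without FR 36, 20 without FR 33, 21 without FR 27, 22 without FM 9 and 23 without FM 5 or FR 28. A single member, Contig3287, which was picked out after its values were seen, had every FR queen above every FM queen, at 0.416% to 0.544% and 0.326% to 0.385%. Such contigs were 0.0535% of all, and no member and 0% of all contigs had every FR queen below every FM queen.

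Against SM queens 27 of the 100 contigs were called in FR queens, where 17.7% of all contigs were. In 10 of them FR queens were higher, which is near the 9.29% of all contigs called so, and in 17 they were lower, against 8.38%. Upper-quartile scaling gave 12 higher and 10 lower, where 12.1% and 5.40% of all contigs were called so. Total counts gave 11 higher and 6 lower, where 8.56% and 2.76% of all contigs were. The medians over all contigs were 0.09 and 0.12 in place of 0.03. DESeq2 gave 11 higher and 25 lower, against 10.8% and 12.2% of all contigs, and limma-voom 19 and 42, against 23.9% and 20.8%. Contig5699 rose from a range of 0.0862% through 0.157% to 0.211% in SM queens by a log2 fold change of 0.88 ± 0.25 (SE; adjusted p = 0.0194 by edgeR). Contig4031, at rank 69, ran from 0.121% through 0.190% to 0.223% in SM and from 0.187% through 0.362% to 0.486% in FR queens, a log2 fold change of 0.80 ± 0.17 (SE; adjusted p = 0.00580 by edgeR). Both ranges overlapped at the low end of the FR queens. Contig4968 ran from 0.366% through 0.926% to 1.85% in SM queens and was lower in FR queens (log2 fold change -1.81 ± 0.60 SE, adjusted p = 0.0385 by edgeR). Contig2368, at rank 64, ran from 0.113% through 0.191% to 0.655% in SM and from 0.0817% through 0.115% to 0.155% in FR queens, a log2 fold change of -1.32 ± 0.39 (SE; adjusted p = 0.0249 by edgeR). Of the SM queens 2 lay within the FR range of that contig, and without SM 19, which held the SM maximum, its value was -0.82 (adjusted p = 0.136 by edgeR).

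Calls of this comparison also turned on single libraries. Contig2368 lost its call without FR 33 or 36 and when the fit held the compared groups alone (-1.20, adjusted p = 0.0539 by edgeR), and Contig5699 lost it without SM 19 or FR 33, at 0.79 in both. Contig4968 lost it with no filter (adjusted p = 0.0679 by edgeR) and without SM 16, 19 or 21 or FR 27, 28, 31, 33 or 36, with log2 fold changes between -1.88 and -1.62. Over all alternatives the adjusted p ran from 0.00433 to 0.430 for Contig2368 and from 0.000134 to 0.430 for Contig4968. With colony C2 or, in turn, C3 left out, the log2 fold changes were 0.79 and 0.88 for Contig5699, 0.68 and 0.83 for Contig4031, -1.64 and -1.37 for Contig4968 and -1.72 and -0.74 for Contig2368. The count of 27 was 16 without SM 19 and 17 without FR 36, and neither is set against the share of all contigs called in those fits. No member had every FR queen above every SM queen, where 0.535% of all contigs did, or below, where 0.0535% did. In both comparisons of FR queens with queens before hibernation, edgeR called no member with colony C2 or with C3 left out. Against FM queens 33 and 34 members then had an unadjusted p under 0.05, and against SM queens 33 and 28. These counts too are not set against the share of all contigs in the same fits.

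The 3 comparisons above share the FR queens, so their calls are not independent of each other. In all, 16 contigs were called in each of the 3, where 8.15% of all tested contigs were, and the fitted values of FR queens were below those of the other groups in 8 and above them in 8. The 8 that were higher had ranks from 16 to 92. Together they held from 2.34% through a median of 3.75% to 4.32% of reads in FR queens, against medians of 2.13% in FM, 2.32% in SM and 2.12% in SR queens. The 8 that were lower had ranks from 8 to 88. They held from 1.39% through a median of 1.49% to 2.82% in FR queens, against medians of 2.68% in FM, 2.72% in SM and 2.28% in SR queens, with Contig4968 the largest of them. As these contigs were gathered by their calls, the sums are a description. Some of the lower set differed by little in their shares. The contig at rank 66, picked out after its values were seen, held 0.229% in SM and in FR queens and 0.222% in SR queens, so its unscaled share was not lower in FR than in SM or SR queens. Its fitted log2 fold changes after TMM scaling were -0.13 for FR over SM (adjusted p = 0.0473 by edgeR) and 0.14 for SR over FR queens (adjusted p = 0.0155 by edgeR). Over all 7 comparisons 70 of the 100 contigs were called at least once and 30 in none, where 39.1% of all tested contigs were called at least once.

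**Figure D4:**
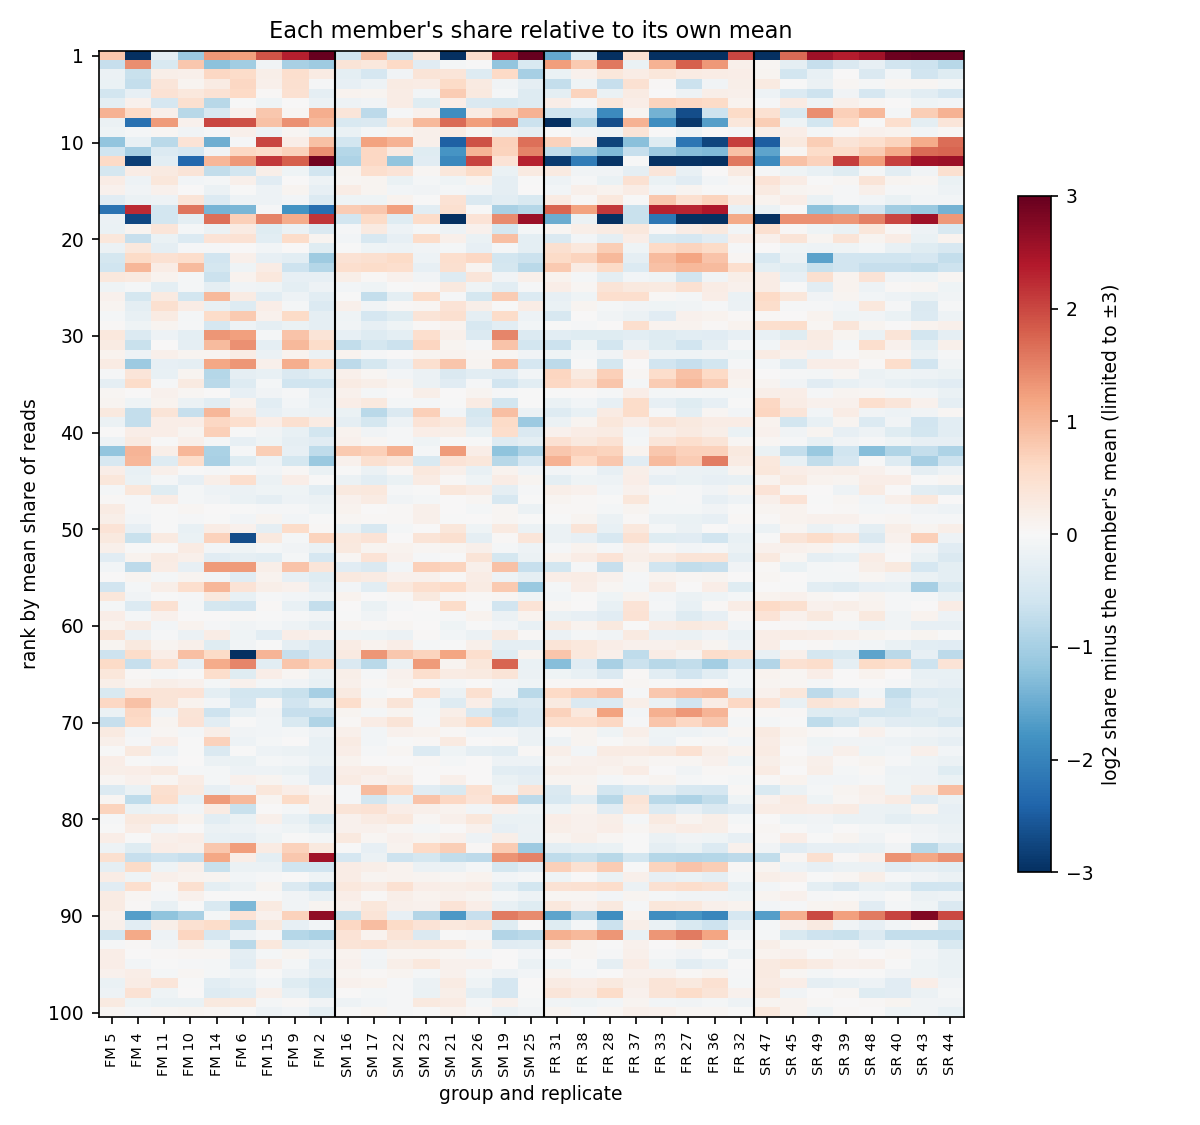
Log2 share of each of the 100 contigs relative to its own mean over the 33 libraries (red higher, blue lower, limited to 3 to either side), with contigs in order of rank and queens ordered within each group by the sum over the 100. The rows of Contig1004 (rank 1), Contig5359 (rank 12), Contig2248 (rank 18) and Contig4127 (rank 90) are all below their means in 13 queens, FM 4, 10 and 11, SM 16, 21 and 22, FR 27, 28, 31, 33, 36 and 38 and SR 47.

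Between SM and FM queens no member passed the test. By edgeR 0 of the 100 were called, where 0% of all contigs were, and 7 lay under 0.05 before adjustment, against 10.1% of all. DESeq2 and limma-voom called 0 of the 100, and 1 and 0 of all contigs. The median log2 fold change was 0.01 over the 100 and -0.01 over all contigs. The members of lowest p, given as values, were Contig5852, at 0.227 ± 0.0284% in FM and 0.255 ± 0.0339% in SM queens (log2 fold change 0.17 ± 0.05 SE, adjusted p = 0.229 by edgeR), and Contig2221, at 0.465 ± 0.221% and 0.339 ± 0.155% (-0.51 ± 0.25 SE, adjusted p = 0.508 by edgeR). Without FM 15 Contig5852 was called (0.20, adjusted p = 0.0492 by edgeR), and its adjusted p reached 0.741 among the alternatives. Contig1004 had a log2 fold change of -0.51 ± 1.18 (SE; adjusted p = 0.937 by edgeR), with an SE larger than the value.

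Few or none of the contigs passed between SR queens and the queens before hibernation, depending on the tool. Against SM queens edgeR called 0 of the 100, where 0% of all contigs were called, and 11 lay under 0.05 before adjustment, against 10.6% of all. DESeq2 called 2 of the 100 and 0.803% of all contigs, and limma-voom 10 and 7.65%. Against FM queens edgeR called 0 of the 100, where 0.0535% of all contigs were called, and 16 lay under 0.05 before adjustment, against 10.2% of all. DESeq2 and limma-voom called 1 each, and 0.589% and 0.0892% of all contigs. Contig2525 had the lowest p among positive values in both, at 0.326 ± 0.0398% in FM, 0.328 ± 0.0425% in SM and 0.427 ± 0.0642% in SR queens (SD). Its log2 fold change was 0.41 ± 0.11 against SM (SE; adjusted p = 0.161 by edgeR) and 0.42 ± 0.10 against FM queens (SE; adjusted p = 0.160 by edgeR). It was called in both comparisons by DESeq2 (adjusted p = 0.0496 and 0.0450), by limma-voom (adjusted p = 0.00159 and 0.0208), by edgeR without the colony term (adjusted p = 0.0276 and 0.0179) and by edgeR without FR 37 (adjusted p = 0.0396 and 0.0172). Over all alternatives its adjusted p ran from 0.00159 to 0.999 against SM and from 0.0172 to 0.999 against FM queens. Among negative values the lowest p was that of Contig3156 against SM (-1.17 ± 0.32 SE, adjusted p = 0.167 by edgeR) and of Contig1623 against FM queens (-0.75 ± 0.24 SE, adjusted p = 0.260 by edgeR). DESeq2 and limma-voom called Contig3156 (adjusted p = 0.0354 and 0.00714, in a range over all alternatives up to 0.999). A missed threshold does not show that these groups are alike.

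A test set the difference between SR and FR queens against that between SM and FM queens, and it called 17 of the 100 contigs, where 7.26% of all contigs were called. In 3 the difference was positive, near the 3.37% of all contigs, and in 14 it was negative, against 3.89%. Total counts gave 1 positive and 19 negative, where 1.28% and 8.49% of all contigs were called so, with a median over all contigs of -0.20 in place of 0.00. The split depended on the tool, with 15 positive and 14 negative by DESeq2, against 7.28% and 7.30% of all contigs, and 47 and 23 by limma-voom, against 21.5% and 22.2%. The positive differences named by size were 3.28 ± 0.93 for Contig4127 (SE; adjusted p = 0.0397 by edgeR) and 0.56 ± 0.17 for Contig765 (SE; adjusted p = 0.0469 by edgeR). Contig765, at rank 45, held 0.241 ± 0.0280% in FR and 0.291 ± 0.0179% in SR queens, and before hibernation 0.282 ± 0.0527% (FM) and 0.263 ± 0.0375% (SM, SD). The negative ones were -1.40 ± 0.39 for Contig3156 (SE; adjusted p = 0.0382 by edgeR) and -1.36 ± 0.40 for Contig5426 (SE; adjusted p = 0.0409 by edgeR). Contig3156, at rank 42, held 0.382 ± 0.0609% in FR and 0.147 ± 0.0356% in SR queens, and before hibernation 0.282 ± 0.155% (FM) and 0.341 ± 0.180% (SM, SD).

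Whether these contigs passed the threshold depended on which libraries were included. The share of all contigs called in the fits without 1 library is not given here, so the counts below are not set against it. The count of 17 was 0 without FM 2, SM 22 or 26, FR 28, 33 or 38 or SR 39. It was 1 without FM 5, FR 36 or SR 40, and 2 without SM 17, FR 27 or SR 43 or 44. It was 5 without FM 9, 6 without FM 14, 7 without SM 21 and 10 without SM 16, FR 31 or SR 45. In the other direction it was 28 without SM 19, 31 without FR 32, 34 without FM 4 and 42 without FR 37. All 4 named contigs lost their call together in 17 of the 33 fits without 1 library. No named contig lost it in 9, those without FM 4, 10 or 15, SM 19, 23 or 25, FR 32 or 37, or SR 47. In fits that lost the call the difference lay between 2.52 and 3.35 for Contig4127, 0.50 and 0.57 for Contig765, -1.43 and -1.26 for Contig3156, and -1.39 and -1.23 for Contig5426. The adjusted p by edgeR was then 0.0525 to 0.0675 for Contig4127 and 0.0511 to 0.0791 for Contig765. For Contig3156 it was 0.0525 to 0.0685, and for Contig5426 0.0514 to 0.0788, so these losses lay near the threshold. Leaving low counts unfiltered also lost all 4 (adjusted p = 0.0629, 0.0654, 0.0630 and 0.0690 by edgeR), and total counts lost Contig765 (0.36, adjusted p = 0.0722 by edgeR). The adjusted p over all alternatives reached 0.398, 0.459, 0.366 and 0.355 for the 4 contigs, and was as low as 0.000287, 0.000254, 0.000264 and 5.65e-05. With colony C2 or C3 left out no member was called, with 17 and 39 at an unadjusted p under 0.05, not set against the share of all contigs. The values were then 2.21 and 2.96 for Contig4127, 0.39 and 0.49 for Contig765, -1.18 and -1.32 for Contig3156 and -1.14 and -1.37 for Contig5426.

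Several contigs rose and fell with Contig1004 from queen to queen. Over the 33 libraries the log2 shares of the other 99 contigs were compared with that of Contig1004 (two-sided permutation tests, adjusted over the 99). The 3 highest Spearman rho were 0.952 for Contig4127 (Pearson r = 0.865), 0.944 for Contig2248 (r = 0.966) and 0.916 for Contig5359 (r = 0.893). The 3 lowest were -0.881 for Contig5699 (r = -0.844), -0.865 for Contig4965 (r = -0.775) and -0.856 for Contig3720 (r = -0.756). Each of the 6 had a permutation p of 1e-05, the smallest that the 100000 resamples can give, with adjusted p of 3.81e-05 for rho and 4.12e-05 for r. The resamples shuffled all 33 libraries without regard to group or colony, so differences between groups or colonies also enter this p. Without FR 28 and 36, the queens farthest from the median of Contig1004, the r values were 0.880, 0.969 and 0.898 for the positive contigs and -0.812, -0.766 and -0.753 for the negative ones. The shares have a common total, and Contig1004 is the largest part of it. With its reads taken out of the total, the rho values were 0.955, 0.952 and 0.918 and -0.849, -0.839 and -0.820. Of the 99 contigs 15 had a positive and 44 a negative rho with an adjusted p under 0.05, and with Contig1004 out of the total 23 and 29. The tested contigs outside the members were not compared with Contig1004. These counts are therefore not set against a share of all contigs, and whether they are particular to abundant contigs was not tested.

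**Figure D5:**
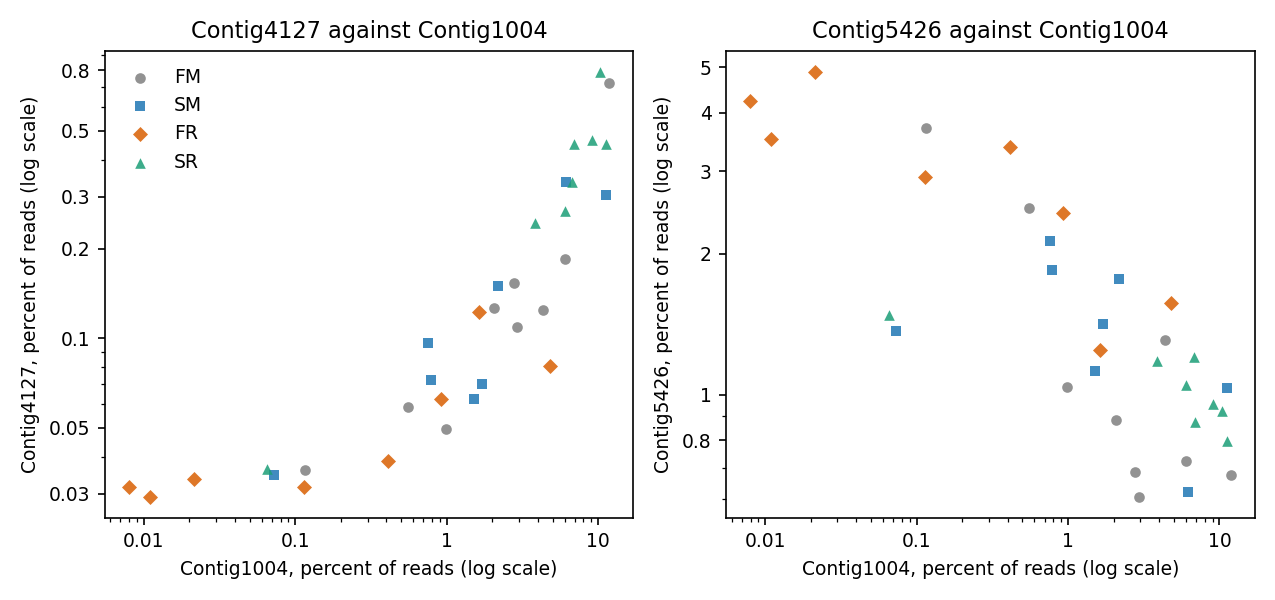
Percent of reads of Contig4127 (left) and Contig5426 (right) against that of Contig1004, with 1 point per queen on log scales and colours and symbols for the 4 groups. Contig4127 runs from 0.0293% to 0.788% with Contig1004, and Contig5426 is highest, at up to 4.88%, in FR queens with little Contig1004.

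These 6 contigs were picked for their extreme rho over the same libraries, so their values inside the groups are a description with no test. Within FM, SM, FR and SR queens, rho with Contig1004 was 0.850, 0.762, 0.929 and 0.857 for Contig4127 and 0.967, 0.905, 0.857 and 0.762 for Contig5359. For Contig2248 it was 0.917, 0.952, 0.952 and 0.452, lowest in SR queens. For Contig5699 it was -0.750, -0.667, -0.857 and -0.857. Among all 99 contigs the sign of rho was the same in all 4 groups for 43. That count is likewise not set against the other tested contigs.

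Contig2248, at rank 18, ran from 0.0258% through a median of 0.0765% to 0.588% in FR and from 0.0309% through 0.683% to 1.55% in SR queens (log2 fold change 2.54 ± 0.80 SE, adjusted p = 0.0209 by edgeR). It ran from 0.0402% through 0.436% to 1.17% in FM and from 0.0324% through 0.371% to 1.56% in SM queens. SR 47 and SM 21 held the lowest values of their groups and lay within the FR range, as did the FM and SM medians. The other SR queens lay above the FR maximum. Contig4965 and Contig3720, at ranks 87 and 23, were lower in SR than in FR queens, with log2 fold changes of -0.43 ± 0.12 (SE; adjusted p = 0.0129 by edgeR) and -0.92 ± 0.21 (SE; adjusted p = 0.00463 by edgeR). Contig3720 ran from 0.285% through 0.610% to 0.742% in FR and from 0.228% through 0.242% to 0.310% in SR queens, which overlapped through FR 37 alone.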

How the data were processed

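Brain mRNA libraries of 33 Bombus terrestris queens were made with a TruSeq kit and sequenced on a HiSeq 2000, per the labels' protocols. The table used holds the deposited counts of reads per contig, whole and not normalized, for 10672 contigs, 1799 of them without a read. FastQC, SAMtools, TopHat and edgeR are named, per the submitters' processing notes. Not given in the sources used here are their versions, the reference, the annotation and the counting rule, so reads shared by similar contigs may have been split between them. Other deposited tables, of scaled and of clustered values, were not used. No column lay outside the 33 samples.

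A contig's share was its count divided by the library's total, in percent. Contigs passing filterByExpr (minimum count 10) were tested, 5606 with 99.989% of reads. The test was the quasi-likelihood F test of edgeR 4.0.16 (R 4.3.3) with robust fitting, TMM scaling, 4 groups and colony as a term, on all 33 libraries. Benjamini-Hochberg adjustment ran over all 5606 contigs, with a call at 0.05. The SE was the absolute log2 fold change over the root of F. As alternatives, voom of limma 3.58.1 (with quality weights) and DESeq2 1.42.0 were run, with other scalings, filters, terms and samples. Correlations used log2 shares with a prior count of 2 and scipy 1.17.1, with 100000 resamples. The edgeR fit was also run on simulated counts with known changes, and the outcome is not given here. Those counts held no colony effect and no link between contigs, so that run is no check on either.

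The members and lists were chosen with earlier results of these data known. Contigs named are the 10 most abundant, those at the limit of the choice, up to 2 in each direction per comparison with the largest called change and the same direction in every colony, or else the lowest p as values, the 2 most and 2 least variable, and the 3 highest and 3 lowest rho with the most abundant. Any other name is marked as picked later. Libraries are separate queens, some from the same colony. Of 528 library pairs the most alike, FR replicates 27 and 28, differed by 82.7 chi-square units per degree of freedom (contigs with a mean count above 50), so no library was counted as a copy.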

Additional observations from a re-analysis of the deposited data

Results flagged for a closer look

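In 23 of 128 sets of values 1 library lay apart from the rest of its group by Dixon's criterion. The sets were the 31 contigs named or at the limit and the sum of the 100, each in 4 groups. Chance meets the criterion in about 5% of sets of normally distributed values. Shares such as those of Contig1004 were skewed and were not transformed, so that rate is only a guide. These sets share libraries and contigs and are not independent. FR replicates 32 and 37 account for 5 sets each, and 12 libraries are involved in all.

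FR replicate 32 was the highest FR queen for the sum of the 100 contigs, at 41.3% with the next at 37.4%. It was also highest for Contig1004, at 4.78% (next 1.64%), Contig3922, at 1.92% (next 0.738%), Contig5359, at 0.893% (next 0.294%), and Contig2248, at 0.588% (next 0.234%). FR replicate 37 was the highest for Contig999, at 1.01% (next 0.777%), Contig2525, at 0.512% (next 0.392%), Contig765, at 0.307% (next 0.245%), Contig3055, at 0.185% (next 0.167%), and Contig3748, at 0.463% (next 0.185%). FR replicate 31 was the lowest for Contig2699, at 1.22% where the next queen had 1.55%, and FR replicate 38 the highest for Contig540, at 1.70% (next 1.26%).

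Among FM queens, replicate 2 was the highest for Contig1004, at 11.9% (next 6.00%), and for Contig4127, at 0.724% (next 0.184%). FM replicate 15 had 1.85% of Contig3922 (next 0.848%), and FM replicate 9 had 0.398% of Contig3748 (next 0.221%). FM replicate 5 had 0.210% of Contig2439 (next 0.182%) and 0.302% of Contig5333 (next 0.267%). Among SM queens, replicate 25 was the highest for Contig2248, at 1.56% (next 0.709%), and the lowest for Contig2439, at 0.147% (next 0.167%), and replicate 23 was the highest for Contig728, at 0.277% (next 0.260%). Among SR queens, replicate 47 was the highest for Contig5699, at 0.154% (next 0.120%), and replicate 49 for Contig3748, at 0.476% (next 0.306%).

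The difference of SR over FR queens was unlike that of SM over FM queens, by edgeR's test of the difference itself, for Contig4127 (3.28 on the log2 scale), Contig765 (0.56), Contig3156 (-1.40) and Contig5426 (-1.36). Leaving out single libraries undid each of these calls in 18 to 23 of 33 fits.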

How the results depend on the processing

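No paired analysis was possible because the groups share no replicate numbers. The count of members called in SR against FR queens was 36 under total counts, where 31.3% of all contigs were called. It was 63 by DESeq2 and 75 by limma-voom, where 34.4% and 58.1% of all contigs were called. By limma-voom 54 members were higher, against 27.3% of all contigs, and 21 lower, against 30.8%. The count was 45 to 65 without 1 library. In FR against FM queens it was 70 by limma-voom, where 44.1% of all contigs were called, and 21 under total counts, where 10.4% were. It was 16 with only the compared groups and 18 to 50 without 1 library. In FR against SM queens it was 61 by limma-voom, where 44.7% of all contigs were called, and 17 under total counts, where 11.3% were. It was 16 to 39 without 1 library. In these 3 comparisons and the difference between stages it was 0 without colony C2 and 0 without colony C3, fits with fewer queens. The difference between stages had 29 by DESeq2 and 70 by limma-voom, where 14.6% and 43.7% of all contigs were called. It had 3 with no filter and 0 to 42 without 1 library. SR against SM queens had 2 by DESeq2 and 10 by limma-voom, where 0.803% and 7.65% of all contigs were called. The count was 1 without the colony term and 1 with only the compared groups. SR against FM queens had 1 by DESeq2 and 1 by limma-voom, where 0.589% and 0.0892% of all contigs were called. The count was 1 without the colony term. These 2 and SM against FM queens had 0 to 1 without 1 library. The share of all contigs called is not given, here or above, for fits with another filter, term or set of libraries. Counts of members from those fits are therefore not set against all contigs. The share held by the 100 in SR queens was 36.4% without Contig1004, and without 1 library 38.0% to 39.5% in FM, 37.4% to 38.8% in SM, 36.6% to 37.4% in FR and 40.0% to 41.5% in SR queens. The log2 fold change of Contig1004 between SM and FM queens turned positive without colony C2 (0.30) and without FM replicate 2 (0.34), in a range from -1.17 to 0.34 without 1 library. Where no construction shows it, the cause was not tested. Counting error is small at this depth, and the spread between 8 or 9 queens a group is the limit.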
